A study of Mus musculus with 6 samples.

Results

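The genes described here carry the signal of tumour necrosis factor (TNF) from its receptors to the transcription factor NF-kB, together with genes that this signal is known to induce. They were taken by gene name from the deposited count table as a list of 36, and all 36 were found, each in 1 row, among 54532 genes. The list was split by role into 2 receptors, 9 adaptors and kinases, 3 genes of the IKK complex, 5 NF-kB subunits, 5 members of the IkB family, 4 feedback regulators and 8 induced genes. The libraries, 3 from Ccrl2-KO mice (KO) and 3 from wild-type mice (WT), hold RNA of mesenchymal stromal cells (MSCs) of the alveolar bone, the part of the jaw that carries the teeth. Ccrl2 encodes an atypical chemokine receptor that presents the ligand chemerin to other cells. Per the submitters' text, both genotypes were inflamed with TNFα and driven towards bone formation, and the replicates were biological. The labels do not say whether each replicate came from a different animal, so the p-values may measure only the spread between these samples, and they give neither strain, age nor TNFα dose and time. The headers of the count table add the word Ctrl, which no source used here explains. Whether these libraries came from cells that had received TNFα or from untreated controls could therefore not be settled, and the samples' own labels name no treatment. The comparison of KO with WT asks how the pathway's transcripts differed between the genotypes, and says nothing of whether or how far TNFα had induced them.

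When TNF binds its receptor, adaptor proteins and ubiquitin ligases assemble on the receptor's tail and activate the IKK kinase complex. IKK marks IkB proteins for destruction, which frees NF-kB dimers to enter the nucleus. NF-kB then induces inflammatory genes and several of its own inhibitors, so the pathway shuts itself down, and in bone its activity favours osteoclasts and restrains osteoblasts.

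Of the 36 genes, 1 was called different between the genotypes. Ptx3, which encodes the secreted pattern-recognition protein pentraxin-related protein PTX3, fell 3.06-fold in KO, while receptors, adaptors, kinases, subunits and inhibitors all missed the threshold. All 36 had enough counts to be tested. A gene was called at an adjusted p under 0.05 in edgeR's quasi-likelihood test with Benjamini-Hochberg adjustment over all 13705 tested genes. Over those genes 2.67% were called (2.31% lower and 0.365% higher in KO), against 1 lower and 0 higher among the 36. The share of the 36 is close to that of all tested genes, so this count is no result about the pathway as a whole. DESeq2 called 2 lower and 1 higher of the 36 (4.79% of all tested genes, 3.89% lower and 0.897% higher). Without the filter on low counts 2 were called lower and 0 higher (3.67% of 24034 genes, 2.6% lower and 1.07% higher). The fit with library quality weights (limma-voom) called 8 lower and 3 higher, where it called 18.5% of all tested genes (10.5% lower and 8.06% higher). Without KO replicate 2, the library that stood apart, Ptx3 was again the only call (4.33% of all genes then tested, 3.49% lower and 0.837% higher). An unadjusted p under 0.05 was found in 9 of the 36 genes and in 14.5% of all tested genes. The log2 fold change, KO over WT, was negative in 26 of the 36 and positive in 10, with a median of -0.12, against a median of 0.02 over all tested genes, where 47.8% were negative.

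**Figure D1:**
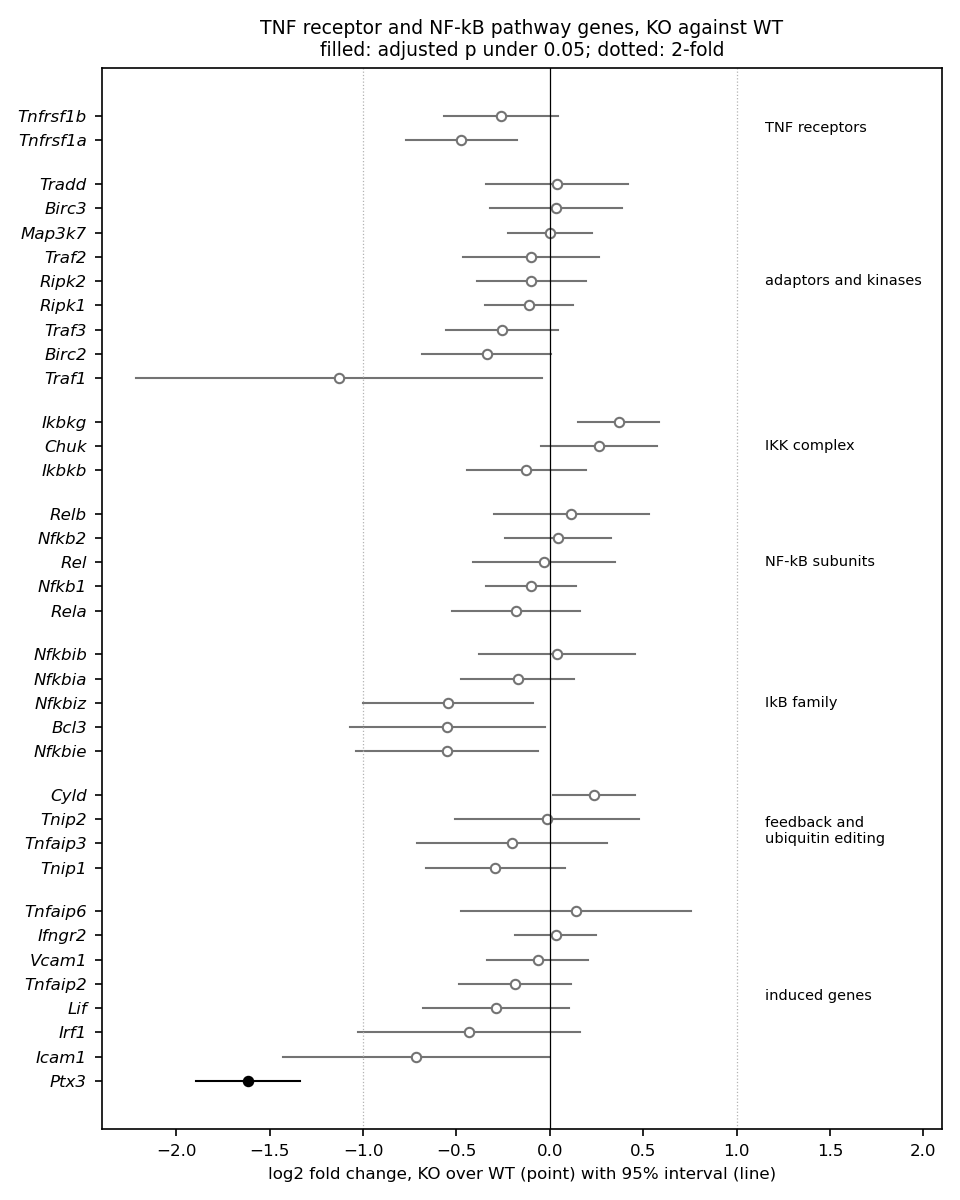
Log2 fold change of KO over WT for the 36 genes, grouped by role, with the 95% interval from the edgeR fit as a line and dotted lines at a 2-fold difference. Ptx3 at -1.62 is the filled point, called at an adjusted p under 0.05, and the intervals of 29 genes lie within 2-fold.

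The deleted gene itself could hardly check the labels, since Ccrl2 had 0 counts in each KO library and 4, 3 and 0 counts in WT replicates 1, 2 and 3. Total counts lay between 16114974 and 18616433, and levels are given below as CPM, counts per 1000000 counts of the library. A gene with 0 counts could stand at up to 0.161 to 0.186 CPM (3 counts), for counting error only. KO replicate 2 stood apart, with counts in 16428 genes and a mitochondrial share of 2.32%, where the other 5 libraries had 18928 to 19372 genes and 1.09% to 1.56%. Of 20 macrophage markers, 17 could be tested, all 17 had negative values and 13 were called lower in KO. Their summed level was 129.6 to 133 CPM in KO and 422 to 475 CPM in WT, and none was at 0 in all libraries. Markers of neutrophils summed to 0 to 0.302 CPM in KO and 0.0579 to 0.548 CPM in WT, with S100a9, Ly6g and Mpo at 0 in all libraries. Endothelial markers summed to 1.73 to 4.17 CPM in KO and 3.51 to 6.58 CPM in WT. Lymphocyte markers summed to 0.555 to 1.93 CPM in KO and 0.496 to 1.04 CPM in WT, with Cd3e and Ms4a1 at 0 in all libraries. All 10 stromal markers passed the filter and summed to 3523 to 3973 CPM in KO and 3729 to 3840 CPM in WT, and 1 of them was called, Thy1, lower in KO (205 ± 7.63 against 354 ± 11.8 CPM, SD, n = 3 each). Cd44 and Prrx1 were the largest terms of this sum. Of the 10, 5 had negative and 5 positive values, and 4 had an unadjusted p under 0.05 in edgeR (14.5% of all tested genes did). Thy1, Pdgfra and Cxcl12 had all KO libraries below all WT libraries (3 of 10, against 11% of all tested genes), while Lepr had a higher mean in KO. Of 9 osteoblast markers, 6 could be tested and 3 were called higher in KO (Sp7, Ibsp and Alpl), while 2 of the 6 had negative values. Their summed level was 23370 to 40647 CPM in KO and 34965 to 42997 CPM in WT, with KO replicate 2 the lowest. Nearly all of this sum was Col1a1, at 39326, 21655 and 32837 CPM in KO and 41861, 40348 and 33425 CPM in WT (edgeR adjusted p = 0.455). Spp1, the next largest term, was highest in KO replicate 2, at 1638 CPM. The sum therefore describes Col1a1 and not the osteoblast markers as a set. Macrophages use this pathway and express several of the 36 genes, Tnfrsf1b among them. The part of the macrophage transcripts in the results below was not tested. In bulk RNA, fewer cells of a type and less RNA per cell cannot be told apart.

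Ptx3 lies on chromosome 3 from 66219910 to 66225805 on the plus strand (GRCm38), inside the gene body of Veph1, which runs on the opposite strand and had 0 to 8 counts per library. Ptx3 had 40.5, 30.2 and 34.3 CPM in KO replicates 1, 2 and 3, against 101, 108 and 108 CPM in WT replicates 1, 2 and 3. The highest KO library stood well below the lowest WT library, and the groups did not overlap. The mean was 35.0 ± 5.17 CPM in KO and 106 ± 3.66 CPM in WT (SD, n = 3 each). The log2 fold change was -1.62 ± 0.13 (SE), with a 95% interval from -1.89 to -1.34 and an adjusted p of 0.00014 (edgeR). The gene was called in each of the 6 fits that left out 1 library, with log2 fold changes from -1.74 to -1.52. The value without KO replicate 2 was -1.52. An exact permutation test of this gene alone gave p = 0.10 (two-sided), the smallest that 3 libraries against 3 can give. The summed macrophage markers given above were also lower in these KO libraries, and their part in the Ptx3 values was not tested.

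The promoter of Ptx3 is shown because this gene was the only 1 of the 36 called. It spans 250 bases before to 50 after the RefSeq start site (chr3:66219637-66219936, plus strand, build GRCm38.p6). Capitals mark the run of 11 bases in which the loose NF-kB motif (GGG, any 5 bases, then CC, searched on both strands) matched 3 times with overlap.

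Ptx3 promoter: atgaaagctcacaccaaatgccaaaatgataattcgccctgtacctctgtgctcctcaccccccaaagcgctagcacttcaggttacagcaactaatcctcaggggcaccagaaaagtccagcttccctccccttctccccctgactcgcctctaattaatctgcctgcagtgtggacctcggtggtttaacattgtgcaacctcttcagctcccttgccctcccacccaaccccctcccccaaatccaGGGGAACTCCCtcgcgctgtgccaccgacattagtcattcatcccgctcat

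The stricter form (GGG, any 2 bases, then TTTCC, also on both strands), which is contained in the loose one, did not occur in these letters of Ptx3. It was found in 1.63% of the 32851 RefSeq windows of the same length, and the loose form in 50.8%. Of the 36 genes, 29 had such a window, and the strict motif was in windows of 9 of them (31.0%), against 1.89% of all 27025 genes with a window, and the loose one in 25 of the 29 (86.2%), against 53.5% of all genes. The 9 genes were Cyld, Ifngr2, Map3k7, Nfkb2, Nfkbia, Rel, Tnfaip3, Traf2 and Traf3, with 10 sites in all. None of the 9 was called between KO and WT. Only 2.67% of all tested genes were called, so this is no result about genes with the motif. The genes were listed for their part in this pathway, so the share is a description. The sites are shown with up to 10 bases on each side, on the strand of the gene, with the motif in capitals, which reads forward or as its reverse complement.

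Traf2, chr2:25546891-25546919, minus strand: gcggcagcggGGGTGTTTCCcggcgagcg
Map3k7, chr4:31964005-31964034, plus strand: ccccgggtcaGGAAATTCCCcgctcgggtc
Cyld, chr8:88696863-88696892, plus strand: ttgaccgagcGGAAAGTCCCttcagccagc
Tnfaip3, chr10:19015403-19015432, minus strand: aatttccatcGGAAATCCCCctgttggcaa
Rel, chr11:23771041-23771070, minus strand: gtaagcagcgGGAAATCCCCccccctcccc
Nfkbia, chr12:55492657-55492686, minus strand: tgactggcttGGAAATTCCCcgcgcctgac
Traf3, chr12:111166350-111166379, plus strand: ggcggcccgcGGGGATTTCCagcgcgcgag
Ifngr2, chr16:91546974-91547003, plus strand: ggaacaccggGGAAAGTCCCcacgggccgg
Nfkb2, chr19:46304716-46304745, plus strand: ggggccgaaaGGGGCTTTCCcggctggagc
Nfkb2, chr19:46305695-46305724, plus strand: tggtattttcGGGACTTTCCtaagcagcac

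The other induced genes differed less than Ptx3, and none was called, where 2.67% of all tested genes were. Icam1 encodes an adhesion molecule that binds leukocyte integrins and is a classical NF-kB target. Icam1 had 3.27, 1.85 and 1.77 CPM in KO, against 3.59, 3.72 and 3.84 CPM in WT. All KO libraries were below all WT libraries, but KO replicate 1 was close to them. The log2 fold change was -0.72 ± 0.32 (SE), with an adjusted p of 0.342. These values rest on 30 to 70 counts per library.

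Vcam1, the other leukocyte adhesion molecule, had 81.8, 98.4 and 80.5 CPM in KO, against 87.8, 81.2 and 99.9 CPM in WT. Its groups overlapped fully, and the 95% interval of its log2 fold change ran from -0.34 to 0.21. Ifngr2, the signalling chain of the interferon-gamma receptor, was the steadiest induced gene, at 81.3, 75.4 and 77.1 CPM in KO and 73.3, 75.8 and 76.5 CPM in WT, with an interval from -0.19 to 0.25. Tnfaip6, a secreted hyaluronan-binding protein, stood at 3.40 ± 0.63 CPM in KO and 3.04 ± 0.327 CPM in WT (SD, n = 3 each). Tnfaip2 averaged 84.1 ± 12.1 CPM in KO and 94.2 ± 10.2 CPM in WT. Lif, a cytokine of the interleukin-6 family, averaged 8.37 ± 0.383 CPM in KO and 10.1 ± 1.19 CPM in WT. Irf1, a transcription factor that NF-kB and interferons induce, had 4.60, 2.90 and 3.12 CPM in KO, against 4.92, 4.90 and 4.28 CPM in WT, so KO replicate 1 lay within the WT range. The log2 fold changes of these last 4 genes lay between -0.43 for Irf1 and 0.14 for Tnfaip6, with adjusted p from 0.467 to 0.837.

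**Figure D2:**
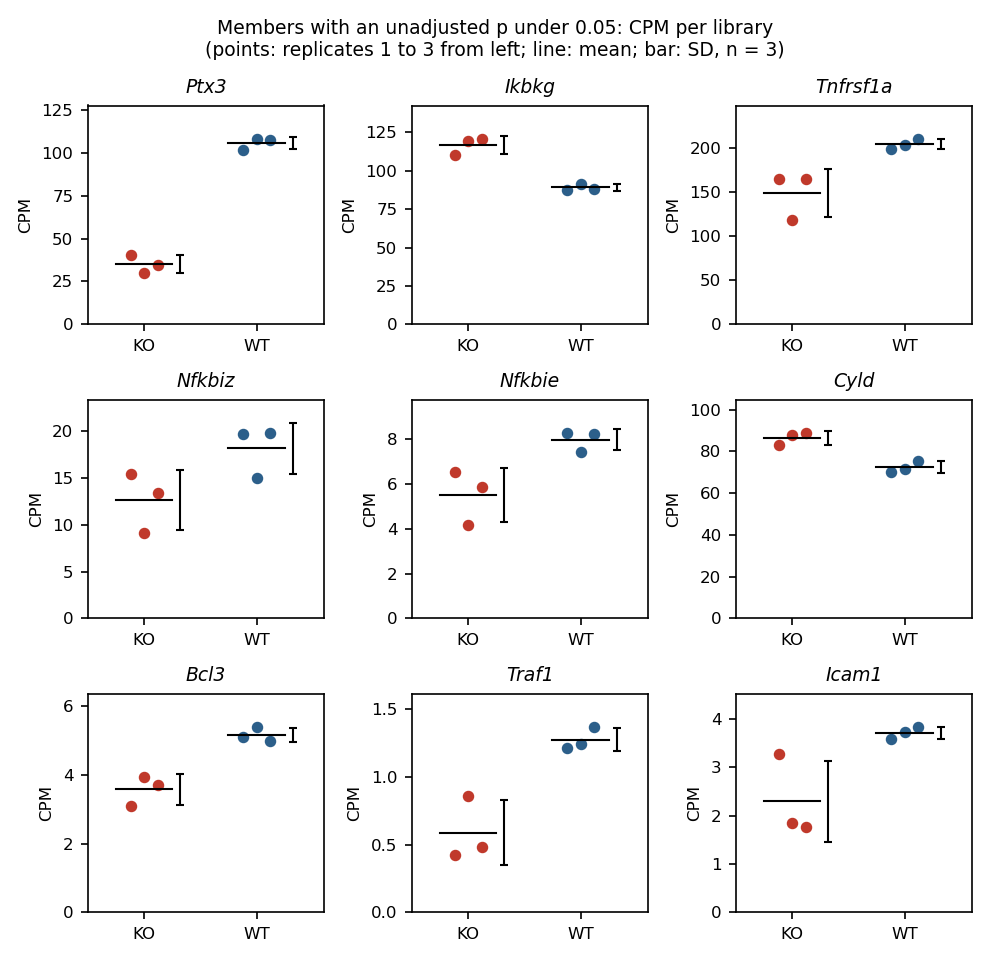
Level in CPM of the 9 genes with an unadjusted p under 0.05, KO libraries left of WT libraries, with replicates 1 to 3 from left to right, a line at the mean and a bar for the SD (n = 3). KO and WT points do not overlap in 8 of the panels, and in Nfkbiz KO replicate 1 lies above WT replicate 2; the gap is widest for Ptx3, at 35.0 against 106 CPM.

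Both receptor transcripts had lower means in KO, without passing the test. Tnfrsf1a encodes the receptor for soluble TNF that most cells carry. It had 166, 118 and 165 CPM in KO replicates 1, 2 and 3, against 199, 204 and 211 CPM in WT replicates 1, 2 and 3. The groups did not overlap, and KO replicate 2 was far below the other KO libraries. The log2 fold change was -0.47 ± 0.13 (SE), with an adjusted p of 0.114. Of the 15 alternatives, 3 called Tnfrsf1a: DESeq2 (adjusted p = 0.0380), no filter on low counts (adjusted p = 0.0114) and limma-voom with quality weights (adjusted p = 0.00507). Without KO replicate 2 the log2 fold change was -0.33 (adjusted p = 0.0764). Tnfrsf1b encodes the receptor that responds mainly to membrane-bound TNF and is strong on leukocytes. Tnfrsf1b had 49.2, 35.1 and 40.0 CPM in KO, against 45.9, 49.95 and 50.8 CPM in WT, with KO replicate 1 inside the WT range. Its log2 fold change was -0.26 ± 0.14 (SE, adjusted p = 0.417).

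Among the 9 adaptors and kinases next to the receptor, edgeR called 0 and DESeq2 called 0, and 1 of them had an unadjusted p under 0.05. Over all tested genes these shares were 2.67%, 4.79% and 14.5%. The median log2 fold change of the 9 was -0.10. Traf1, an adaptor without the ubiquitin ligase domain of its family and itself an NF-kB target, had the lowest level of all 36 genes. Its counts ran from 7 to 25 per library. Traf1 stood at 0.423, 0.863 and 0.483 CPM in KO, against 1.22, 1.24 and 1.37 CPM in WT. The groups did not overlap, and the log2 fold change of -1.13 ± 0.49 (SE) had a wide interval, from -2.22 to -0.04 (adjusted p = 0.326).

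Birc2 and Birc3 encode the ubiquitin ligases that build chains on the receptor complex. Birc2 had 11.1, 14.2 and 14.0 CPM in KO, against 15.5, 16.6 and 16.9 CPM in WT, without overlap (adjusted p = 0.356). Birc3 had 18.8, 15.7 and 17.2 CPM in KO, against 16.3, 14.1 and 19.3 CPM in WT, and these groups overlapped. Traf3, which holds back the non-canonical branch of the pathway, averaged 39.7 ± 4.39 CPM in KO and 46.7 ± 5.22 CPM in WT (SD, n = 3 each), with overlapping groups. Traf2, which recruits the Birc ligases, averaged 21.5 ± 4.35 CPM in KO and 22.7 ± 1.70 CPM in WT. Tradd, the adaptor that docks on the receptor's death domain, averaged 28.0 ± 6.61 CPM in KO and 26.9 ± 1.79 CPM in WT.

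The kinases of this step had narrow intervals around 0. Map3k7, which activates IKK, had 106, 101 and 117 CPM in KO and 102, 108 and 109 CPM in WT, and its 95% interval on the log2 scale ran from -0.23 to 0.22. Ripk1, the kinase and scaffold that also decides between survival and death, averaged 52.0 ± 1.54 CPM in KO and 55.4 ± 3.07 CPM in WT. Ripk1 exons overlap those of Serpinb6a on the other strand, which had 8721 to 15443 counts, and without known strand the reads cannot be assigned with certainty. Ripk2, the kinase of the bacterial sensors NOD1 and NOD2, averaged 18.9 ± 0.818 CPM in KO and 20.0 ± 0.907 CPM in WT.

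In the IKK complex, values of the regulatory subunit were higher in KO and those of the kinase Ikbkb overlapped. Ikbkg, the regulatory subunit also called NEMO, had 110.2, 119 and 121 CPM in KO, against 87.3, 91.6 and 88.4 CPM in WT. Every KO library was above every WT library. The log2 fold change was 0.37 ± 0.10 (SE), with an adjusted p of 0.0942 in edgeR and, for Ikbkg, an adjusted p of 0.0256 in DESeq2, which called it, as did limma-voom with quality weights (adjusted p = 0.00327). Leaving out single libraries gave log2 fold changes from 0.35 to 0.40 and adjusted p from 0.0688 to 0.412. The gene shares exon positions with G6pdx on the opposite strand, whose own log2 fold change was -0.57 ± 0.14 (SE, adjusted p = 0.0663), so the values of both genes are uncertain. Chuk, the kinase subunit of the non-canonical branch, had 55.6, 75.7 and 68.5 CPM in KO, against 51.4, 50.4 and 62.5 CPM in WT, with KO replicate 1 inside the WT range (adjusted p = 0.419). Ikbkb, the kinase of the canonical branch, had 39.9, 31.1 and 42.4 CPM in KO, against 44.9, 38.3 and 38.6 CPM in WT (adjusted p = 0.697).

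The 5 genes of the NF-kB subunits gave no call with edgeR, none with DESeq2 and no unadjusted p under 0.05, where the shares over all tested genes were 2.67%, 4.79% and 14.5%. KO and WT overlapped in each. Rela, the activating subunit of the canonical dimer, had 129.9, 80.6 and 109 CPM in KO, against 119, 123 and 114 CPM in WT. KO replicate 2 was the lowest and KO replicate 1 the highest of all. Relb, the partner of the non-canonical dimer, showed the same order within KO, with 30.9, 18.2 and 22.4 CPM, against 19.9, 22.5 and 22.6 CPM in WT. Nfkb1 and Nfkb2, whose precursor proteins are cut to the DNA-binding partners, averaged 109 ± 11.6 and 54.6 ± 7.86 CPM in KO, against 115 ± 3.81 and 52.2 ± 1.71 CPM in WT (SD, n = 3 each). Rel, a subunit best known from lymphocytes, averaged 15.2 ± 2.22 CPM in KO and 15.3 ± 1.72 CPM in WT. The log2 fold changes of the 5 lay between -0.18 for Rela and 0.12 for Relb, with 95% intervals that all stayed within 2-fold.

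The IkB family holds inhibitors that keep NF-kB in the cytoplasm (Nfkbia, Nfkbib and Nfkbie) and nuclear members that adjust transcription (Nfkbiz and Bcl3). Here 3 of the 5 genes had an unadjusted p under 0.05 (14.5% of all tested genes did), all with lower means in KO. None of the 5 was called by edgeR or DESeq2, which called 2.67% and 4.79% of all tested genes. Nfkbie had 6.53, 4.19 and 5.86 CPM in KO, against 8.28, 7.45 and 8.22 CPM in WT, without overlap. Nfkbiz had 15.4, 9.12 and 13.4 CPM in KO, against 19.6, 15.02 and 19.8 CPM in WT, and KO replicate 1 was above WT replicate 2. Bcl3 had 3.08, 3.94 and 3.71 CPM in KO, against 5.10, 5.40 and 4.99 CPM in WT, without overlap. The log2 fold changes of these 3 genes were close to each other, at -0.55 ± 0.22 for Nfkbie, -0.55 ± 0.21 for Nfkbiz and -0.55 ± 0.24 for Bcl3 (SE), with adjusted p of 0.282, 0.256 and 0.322. Without KO replicate 2 they were -0.39 for Nfkbie, -0.36 for Nfkbiz and -0.63 for Bcl3. Nfkbia, the inhibitor that NF-kB itself renews most quickly, had 27.5, 21.6 and 24.3 CPM in KO, against 28.8, 25.01 and 27.7 CPM in WT, and the groups overlapped. Its log2 fold change was -0.17 ± 0.14 (SE, adjusted p = 0.566). Nfkbib averaged 18.8 ± 3.42 CPM in KO and 18.1 ± 3.12 CPM in WT, and its exons overlap those of Sirt2 on the other strand.

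None of the 4 feedback regulators was called, where 2.67% of all tested genes were. Cyld encodes a deubiquitinase that removes the chains on which IKK is activated. It had 82.9, 87.9 and 88.9 CPM in KO, against 70.0, 71.6 and 75.6 CPM in WT. The groups did not overlap, with a log2 fold change of 0.24 ± 0.10 (SE) and an adjusted p of 0.306. Tnfaip3, the ubiquitin-editing enzyme that ends NF-kB signalling, had 7.02, 5.18 and 6.07 CPM in KO, against 8.22, 5.46 and 7.02 CPM in WT. For Tnfaip3, WT replicates 2 and 3 lay within the KO range, replicate 3 only just. Tnip1, the partner of Tnfaip3, averaged 27.5 ± 5.72 CPM in KO and 33.1 ± 3.73 CPM in WT, and Tnip2 averaged 9.49 ± 2.49 CPM in KO and 9.45 ± 1.51 CPM in WT (SD, n = 3 each). Adjusted p was 0.695 for Tnfaip3, 0.446 for Tnip1 and 0.980 for Tnip2.

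**Figure D3:**
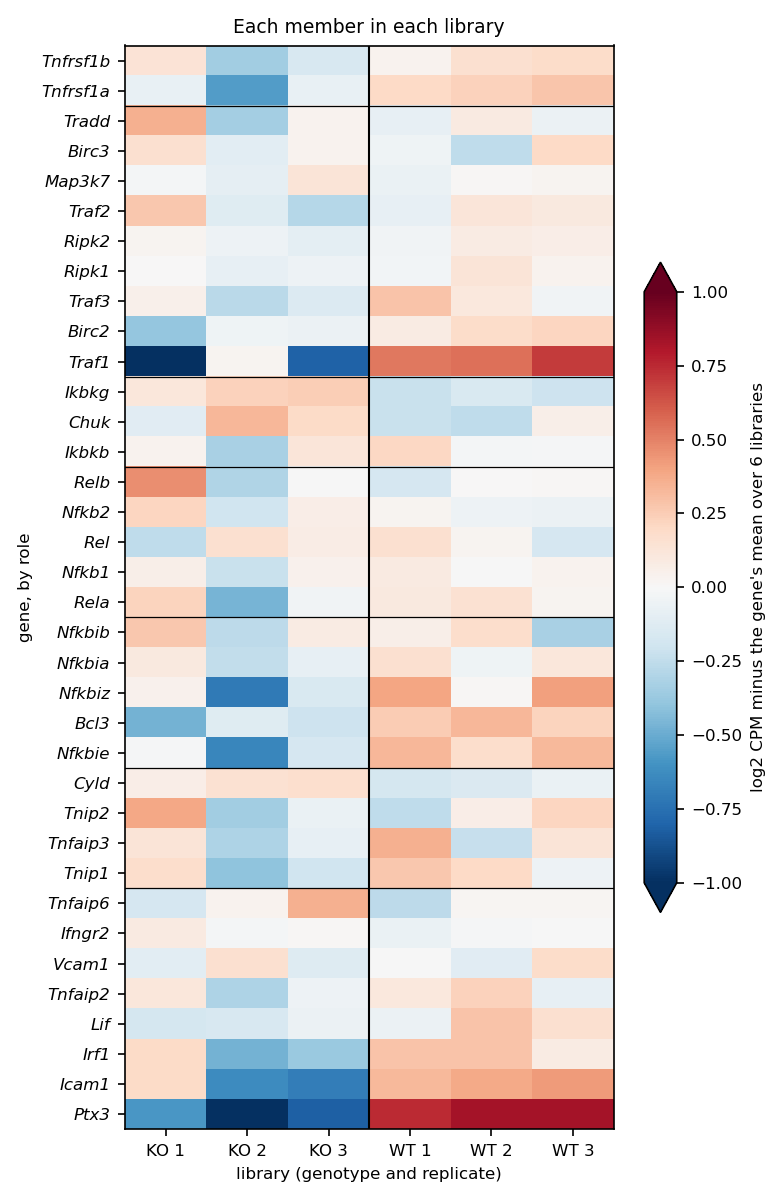
Each cell is the log2 CPM of a gene in a library minus that gene's mean over the 6 libraries, genes in rows by role, KO columns left of WT columns. The bottom row, Ptx3, splits by genotype, while the column of KO replicate 2 is low for genes of most roles, being the lowest library for 20 of the 36.

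Across the libraries, the largest shared deviation was that of KO replicate 2. It was the lowest of the 6 libraries for 20 of the 36 genes (55.6%) and the highest for 1, Chuk. Over all tested genes it was the lowest for 31.8% and the highest for 31.6%. The median deviation of the 36 genes from their own means was -0.24 on the log2 scale in KO replicate 2, against 0.06 in KO replicate 1, -0.06 in KO replicate 3 and 0.06 to 0.09 in the WT libraries. WT libraries were close to one another, with a median within-group SD of 0.0970 on the log2(CPM + 0.5) scale for the 36 genes in WT, against 0.211 in KO. Over all tested genes the SD was 0.228 in KO and 0.148 in WT. Without KO replicate 2 the median log2 fold change of the 36 was -0.10, and without KO replicate 1 it was -0.25. KO and WT did not overlap in 9 of the 36 genes, 2 above and 7 below WT, against 20.9% of all tested genes (9.9% above and 11% below). The 2 above were Ikbkg and Cyld. The 7 below were Ptx3, Tnfrsf1a, Nfkbie, Bcl3, Traf1, Icam1 and Birc2. The 27 genes with an unadjusted p of 0.05 or more had log2 fold changes between -0.43 and 0.26. For 29 of the 36 genes (80.6%) the 95% interval excluded a 2-fold difference in either direction, against 73.2% of all tested genes.

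To compare levels between genes, CPM was divided by the deposited gene length in kilobases. On this scale Tnfrsf1a was the highest of the 36, at 57.8 CPM per kilobase in KO and 79.0 in WT, and Traf1 the lowest, at 0.0669 in KO and 0.145 in WT. Rela came next to Tnfrsf1a, with 39.2 CPM per kilobase in KO and 43.7 in WT. Ptx3 stood at 13.0 CPM per kilobase in KO and 39.4 in WT, so its place in the order depended on the genotype. Ifngr2, Tnfaip2, Map3k7, Nfkb2, Nfkbia and Tradd followed, between 11.5 and 21.6 CPM per kilobase over all libraries. The 2 adhesion molecules lay far apart, Vcam1 at 9.79 CPM per kilobase in KO and 10.1 in WT, and Icam1 at 0.527 in KO and 0.852 in WT. Tnfaip3, Irf1, Icam1 and Traf1 took the last 4 places. Of the 35 pairs of neighbours in this order, 33 had overlapping ranges over the libraries. The separated pairs were Bcl3 above Irf1 and Icam1 above Traf1.

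**Figure D4:**
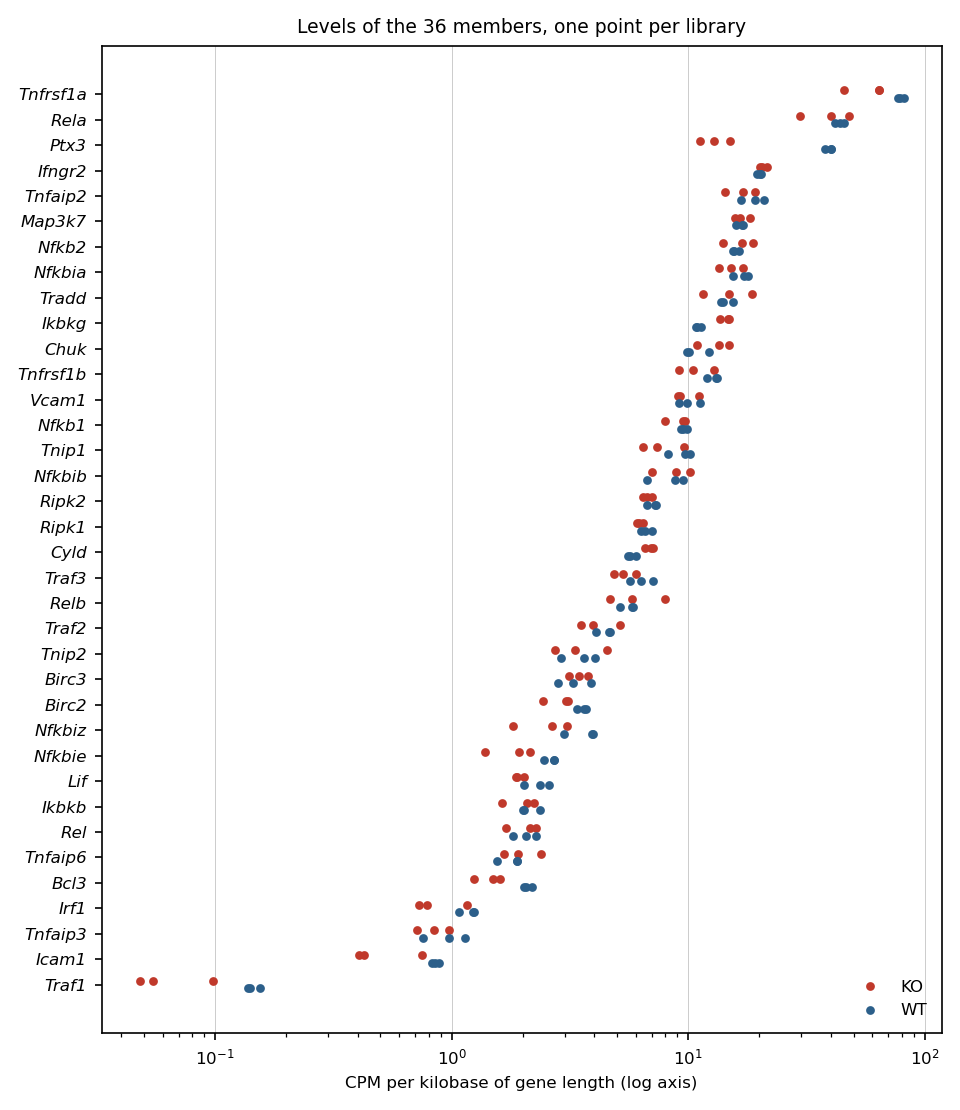
Level of each of the 36 genes in CPM per kilobase of gene length on a log axis, one point per library, KO above WT within each row. Ptx3 shows the widest gap between KO and WT on this axis, at 13.0 against 39.4.

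Other genes of the pathway were taken from a list of 69 ligands, receptors, adaptors, ubiquitin regulators, IkB-like factors and induced genes. Of these, 59 could be tested, and 1 was called higher and 3 lower in KO, where 0.365% of all tested genes were called higher and 2.31% lower. Their median log2 fold change was -0.11. DESeq2 called 9 of the 59, where it called 4.79% of all tested genes. The list was chosen with earlier results of these data known, so these counts are a description. Tnfrsf11b encodes osteoprotegerin, the decoy receptor that blocks RANKL and so osteoclast formation. It rose in KO, with 126, 141 and 146 CPM, against 77.0, 74.5 and 87.3 CPM in WT (log2 fold change 0.77 ± 0.11, SE, edgeR adjusted p = 0.00342), and it was called with each library left out in turn.

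The 3 called lower were Pdlim2, Ripk3 and Nuak2, the last listed among the induced genes. Nuak2, a kinase of the AMPK family, had 12.9, 11.1 and 13.5 CPM in KO, against 25.1, 25.4 and 18.7 CPM in WT (log2 fold change -0.91 ± 0.17, SE, edgeR adjusted p = 0.0192). Pdlim2, which promotes degradation of nuclear RelA, had 60.0, 57.5 and 50.1 CPM in KO, against 79.0, 73.7 and 84.7 CPM in WT (-0.52 ± 0.11, adjusted p = 0.0399). Ripk3, the kinase of necroptosis, had 59.5, 46.7 and 52.4 CPM in KO, against 72.9, 75.0 and 76.4 CPM in WT (-0.52 ± 0.12, adjusted p = 0.0432). None of these groups overlapped. Nuak2 was lost without KO replicate 3 or WT replicates 1 or 2 (adjusted p up to 0.133). Pdlim2 and Ripk3 were lost without KO replicate 3 or any 1 of the WT libraries (adjusted p up to 0.197 and 0.241), and also when only library totals were used for scaling (adjusted p = 0.05001 for Pdlim2 and 0.0560 for Ripk3).

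Of the 8 ligand genes, 6 had too few counts to be tested. Tnf had 0 counts in each KO library and 1, 1 and 4 counts in WT replicates 1, 2 and 3. Cd40lg had 0 counts in all 6 libraries, and Lta, Ltb, Tnfsf14 and Tnfsf13b had at most 5, 3, 2 and 9 counts in any of them. Tnfsf12, the ligand TWEAK, and Tnfsf11, the ligand RANKL, were the ligands with enough counts to be tested. Tnfsf12 stood at 8.81 to 9.80 CPM in KO and 13.2 to 14.8 CPM in WT, with a log2 fold change of -0.64 ± 0.16 (SE, adjusted p = 0.0627). Tnfsf11 had 0 to 21 counts per library in KO and 20 to 31 in WT (adjusted p = 0.487).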

How the data were processed

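Counts came from TRIzol-extracted RNA and NEBNext Ultra libraries, per the labels' protocols. HISAT2, StringTie and SAMtools, without versions, and the build mm9 are named in the submitters' processing notes, whereas the counter and its use of strand are not. The deposited counts are whole numbers per gene, not normalized, with the gene's length as another value. Columns were matched to samples by genotype and replicate number. Of 54409 gene IDs also present in GENCODE M21, 53499 (98.3%) have the same coordinates in it, so coordinates are printed as GRCm38, and promoter windows come from RefSeq (GRCm38.p6).

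Levels are CPM (counts per 1000000 of the library total). KO was tested against WT with edgeR 4.0.16 in R 4.3.3 (robust quasi-likelihood, TMM factors from 0.982 to 1.01, filterByExpr at a count of 10 and a total of 15), adjusted by Benjamini-Hochberg over 13705 genes at a threshold of 0.05. SE is the size of the log2 fold change over the root of F, and 95% intervals use the degrees of freedom of the fit. On simulated data the procedure recovered 78% of 100 genes changed 2-fold and 100% of 100 changed 4-fold. There were 9 false calls among 187. The changed genes were drawn only above a minimum mean count, so genes with fewer counts were not covered. No simulated library stood apart as KO replicate 2 did, and changes smaller than 2-fold were not simulated, so the recovery does not cover these either. The genes and lists were chosen with earlier results of these data known. By rule, values in every library are printed for the 8 genes of smallest p, the highest and lowest per kilobase and others of each role, and the called genes among the other pathway genes are named. Alternatives were DESeq2 1.42.0 (test and size factors), library totals, no filter or at least 5 CPM in 3 libraries, limma-voom 3.58.1 with and without quality weights, no robust moderation, a replicate block, and each library left out in turn.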

Additional observations from a re-analysis of the deposited data

How the results depend on the processing

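Ptx3 was called lower in KO under all 15 alternatives tried. The count of called genes among the 36 was 1 lower and 0 higher here, 2 lower without the filter on low counts, 2 lower and 1 higher with DESeq2, and 8 lower and 3 higher with quality weights in limma-voom. That last fit called 1436 genes lower and 1105 higher in all (18.5% of those tested), so it raised the background as well. Over all genes, 316 were lower and 50 higher here, 625 and 258 without the filter, and 533 and 123 with DESeq2. With single libraries left out, 135 to 492 genes were lower and 12 to 118 higher. The median log2 fold change of the 36 genes then ranged from -0.25 to -0.10.

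Of the 69 other pathway genes, 59 could be tested here and 4 were called. The count was 2 with library totals only and with the replicate block, and 9 without the filter and with DESeq2. It was 17 with quality weights, and 1 to 9 with single libraries left out. Of all genes tested, 2.67% were called here, 3.67% without the filter, 4.79% with DESeq2 and 18.5% with quality weights. With library totals only, 292 of all genes were lower and 57 higher. Among the 36 genes, those whose sign changed under an alternative are given next, and none of them was called here. With library totals only, Tnip2 became 0.0051 and Map3k7 0.021, and Map3k7 was 0.0026 without the filter. With quality weights, Ikbkb was 0.0082, Tradd -0.0036, Nfkbib -0.040 and Map3k7 0.068. With single libraries left out, log2 fold changes ran from -0.13 to 0.27 for Relb, -0.065 to 0.15 for Nfkb2, -0.012 to 0.049 for Ifngr2, -0.15 to 0.19 for Tradd, -0.070 to 0.14 for Birc3, -0.11 to 0.17 for Nfkbib, -0.13 to 0.069 for Rel, -0.061 to 0.042 for Map3k7, -0.25 to 0.13 for Tnip2, -0.28 to 0.017 for Traf2, -0.012 to 0.24 for Tnfaip6 and -0.17 to 0.0051 for Vcam1. The cause was not tested.

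Deviations of same-numbered libraries from their group means correlated at 0.137, -0.106 and -0.192 across genes. Those of differently numbered libraries correlated at -0.188 to 0.264. These few values, centred within groups of 3, cannot decide whether the replicate numbers pair the samples. With the replicate block, 292 genes were lower and 39 higher, Ptx3 was the only call among the 36 genes, and Pdlim2 and Ripk3 lost theirs. Low counts limit Traf1, with 7 to 25 counts, and Icam1, with 30 to 70, most.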
